A study of Mus musculus with 4 samples.

Results

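HOPX, PTGER2 and LRRN3 are 3 of the 33538 human genes counted in this series. They were chosen because their summed counts were high in blood of mice with spinal cord injury (SCI), so the ratios of SCI blood to the other blood libraries are given as a description, with no test. What the choice did not use is which immune subsets held each transcript, and how far each difference followed the share of those subsets in the blood or the level within them. Those are the values described here.

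The series holds single-cell RNA sequencing of human leukocytes from huNSG-SGM3 mice, NOD.Cg-Prkdcscid animals that also carry the allele IL2rgtm1Wjl and the transgene Tg(CMV-IL3,CSF2,KITLG)1Eav/MloySzJ. These mice lack their own lymphocytes, express human IL3, CSF2 and KITLG from a viral (CMV) promoter and, in every group, carried an immune system grown from human cord blood CD34+ cells given after irradiation. Live human CD45+ cells were sorted from blood of naïve mice without surgery (treatment none, male hosts), of sham mice with a T9 laminectomy (male hosts) and of mice with a T9 spinal cord injury (male and female hosts pooled), and from the spinal cord of the injured mice, whose cells were first enriched on magnetic beads. The labels give an age of 15 weeks for all 4 libraries, and the operated groups were taken 7 days after surgery. Cells of different animals were pooled and each condition was 1 library, so there is no spread between animals to test against, and host sex cannot be told apart from injury. All intervals below are 95% counting intervals, which cover counting error only.

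After filtering, 6323, 4645 and 5935 cells of naïve, sham and SCI blood and 118 cells of the SCI cord remained, with a median of 3697, 5230, 4655 and 9331 unique molecular identifiers (UMIs, 1 per captured transcript) per cell. The cells kept shared few barcodes, 4 to 10 between any pair of blood libraries and 1 between SCI blood and cord. A UMI of PTPRC, which encodes CD45, was found in 96.6 to 99.4% of the cells of each library. Levels are given as CPM, the UMIs of a gene over all human UMIs without ribosomal and mitochondrial transcripts, scaled to a fixed total. Of the plasma-like cells, 380 lay in the naïve library, 0 in sham and 2 in SCI blood, so ratios of the 3 genes and of the pathway lists to naïve blood are also given without them.

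HOPX is a small homeodomain protein that binds no DNA itself and acts through partners such as serum response factor and histone deacetylases. In lymphocytes it is known from effector and memory T cells and from natural killer (NK) cells. PTGER2 encodes EP2, a receptor for prostaglandin E2 that couples to the stimulatory G protein and raises cyclic AMP, a signal that restrains T cell activation. LRRN3 encodes a membrane protein with leucine-rich repeats, first known from neural tissue, and its transcript is a mark of naïve T cells in human blood.

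HOPX (ENSG00000171476) was counted 694 times in naïve blood, 512 times in sham blood and 1720 times in SCI blood. These counts gave 31.5 CPM (interval 29.2 to 33.9), 24.99 CPM (22.9 to 27.3) and 79.8 CPM (76.1 to 83.7). The SCI library stood above both others, and the sham library below the naïve library, with no overlap of the intervals. On the log2 scale SCI blood was 1.34 above naïve and 1.67 above sham blood, and the log2 ratio of sham to naïve blood was -0.33, a direction that turned to 0.0061 when UMIs per cell took the place of CPM. That scaling moved the median of all genes in the same comparison from 0.07 to 0.41.

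PTGER2 (ENSG00000125384) was counted 790 times in naïve blood, 1089 times in sham blood and 2354 times in SCI blood. Its levels were 35.9 CPM (33.4 to 38.5), 53.2 CPM (50.04 to 56.4) and 109 CPM (105 to 114). LRRN3 (ENSG00000173114) was counted 685, 1032 and 2069 times, at 31.1 CPM (28.8 to 33.5), 50.4 CPM (47.3 to 53.5) and 96.0 CPM (91.9 to 100.3). Both genes thus had the same order of libraries from lowest to highest, naïve, sham, SCI, whereas for HOPX the sham library was the lowest. The log2 ratio of SCI to naïve blood was 1.61 for PTGER2 and 1.63 for LRRN3, that of SCI to sham blood 1.04 and 0.93, and that of sham to naïve blood 0.57 and 0.70.

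**Figure D1:**
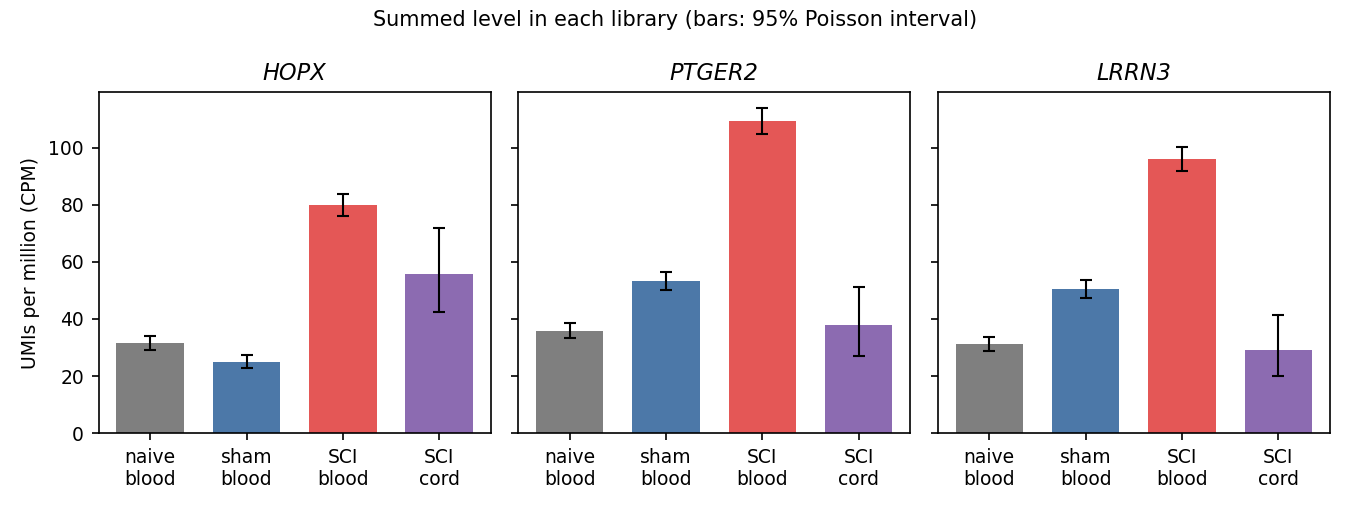
Level of HOPX, PTGER2 and LRRN3 (CPM, vertical axis) in the 4 libraries (horizontal axis), each bar 1 library and each line its 95% Poisson interval. SCI blood is the highest bar for each gene, and the SCI cord lies at 55.6 CPM for HOPX, 37.7 CPM for PTGER2 and 29.2 CPM for LRRN3.

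Against naïve blood, 3 of 3 members were higher in SCI blood by a log2 ratio of at least 1, as were 3.29% of the 14544 human genes with at least 20 counts. Against sham blood, 2 of 3 members passed that ratio and LRRN3 lay just below it at 0.93, with 1.92% of 14500 genes past it. For sham against naïve blood none of the 3 passed, with 2.15% of genes past it. The first of these counts follow from how the genes were chosen, and nothing is read from them. Without the plasma-like cells the ratios to naïve blood were smaller, at 1.04 for HOPX, 1.30 for PTGER2 and 1.32 for LRRN3. HOPX no longer passed against naïve blood in T subsets only (0.94) or in cells thinned to 1000 UMIs (0.97), and PTGER2 no longer against sham blood in UMIs per cell (0.76), as a mean over cells (0.98) or with no filter on cells (0.99), while LRRN3 against sham blood reached 1.00 in thinned cells.

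Cells were then grouped by clustering without the 3 genes, and 6 clusters were named as T cell subsets from marker lists. They were CD8 T-like cells (leading genes NT5E, SERPINF1, IFNG-AS1, EGLN3 and ITGA1), naïve T-like cells (NRP2, AK5, MCOLN3, NOG and ZNF462), CD4 T-like cells (CCR10, ST6GALNAC1, TSHZ2, CD40LG and USP46), Treg-like cells (FOXP3, FANK1, ADAM12, PTGIR and CTLA4), cytotoxic memory T-like cells (KLRC1, GNLY, GZMB, FGFBP2 and GZMH) and PDCD1/CD200 T-like cells, which resembled follicular helper cells (FZD3, GNG4, IGFBP4, CD200 and AC004585.1). Naïve T-like cells carried CD4 at 137, 138 and 155 CPM in naïve, sham and SCI blood and CD8A at no more than 7.89 CPM. They also carried GZMA, a granule protease of effector cells, at 1696, 1691 and 1930 CPM, a level that the name does not cover. The CD8 T-like cells carried CCR7, a lymph node homing receptor, at 800 to 923 CPM beside GZMK, a protease of early memory cells, at 2684 to 2886 CPM.

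The make-up of the blood differed between the libraries. CD8 T-like cells were 10.4%, 13.3% and 24.1% of the cells in the naïve, sham and SCI libraries, and naïve T-like cells 2.82%, 2.86% and 9.86%. Treg-like cells were 17.6%, 23.1% and 12.2%, and PDCD1/CD200 T-like cells 8.08%, 10.1% and 5.16%. Cytotoxic memory T-like cells took 7.80%, 6.33% and 7.50%, and CD4 T-like cells 20.1%, 23.6% and 19.3%. Thus CD8 T-like and naïve T-like cells took a larger share in SCI blood than in either control and Treg-like and PDCD1/CD200 T-like cells a smaller one. The cytotoxic share lay between those of the controls, and the CD4 T-like share was below that of sham blood. Of the UMIs of each gene, these 6 subsets held 77.1 to 83.2% for HOPX, 87.7 to 95.4% for PTGER2 and 90.4 to 93.8% for LRRN3 in the blood libraries. Cycling cells are not counted among the 6, although 8 general T cell markers were detected in them too, at a median fold of 1.16. They held 11.2%, 13.3% and 16.0% of the HOPX UMIs of naïve, sham and SCI blood.

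**Figure D2:**
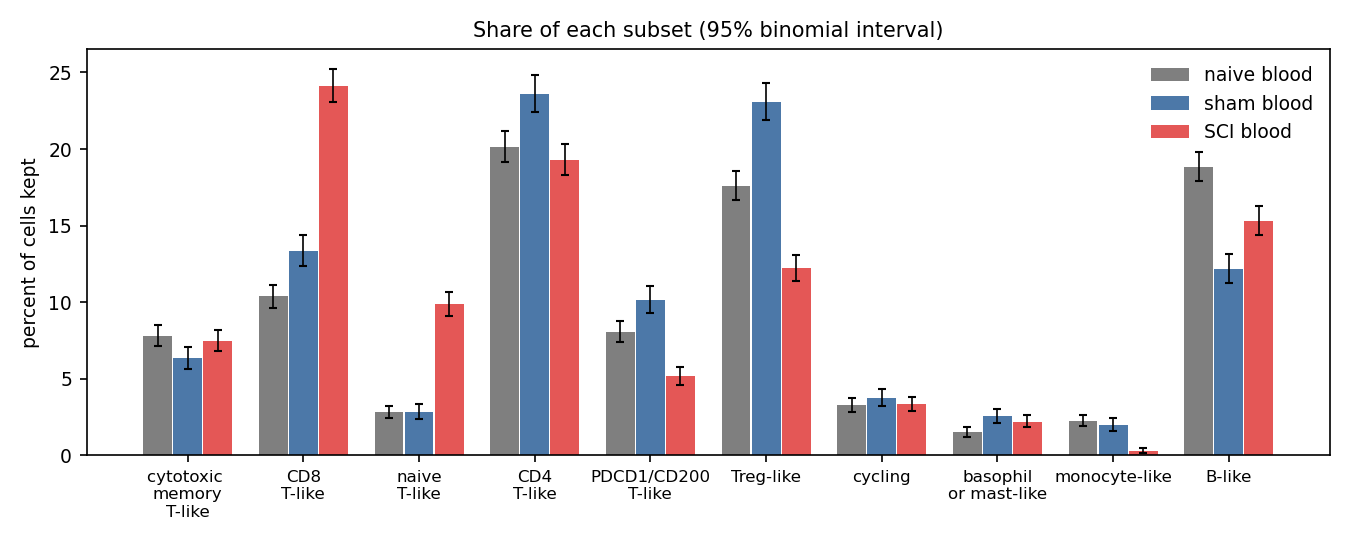
Share of each subset among the cells kept (percent, vertical axis) in naïve, sham and SCI blood, with 95% binomial intervals. CD8 T-like and naïve T-like cells make up 24.1% and 9.86% of SCI blood, above both control libraries, and cytotoxic memory T-like cells 7.50%.

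Among the subsets HOPX had its highest level in the cytotoxic memory T-like cells, at 144 CPM (125 to 166) in naïve blood, 152 CPM (132 to 175) in sham blood and 503 CPM (468 to 540) in SCI blood. The controls overlapped, and the SCI library lay far above them (log2 ratio 1.80 to naïve and 1.72 to sham). These cells held 29.1%, 38.5% and 44.2% of the HOPX UMIs of the naïve, sham and SCI libraries, and CD4 T-like cells 30.8%, 27.0% and 22.8%, so that in naïve blood the CD4 T-like cells held slightly more. By level, cycling cells came next in SCI blood (52.1, 30.01 and 130.5 CPM), followed by CD4 T-like cells (57.0, 29.1 and 89.7 CPM), monocyte-like cells (30.1, 11.3 and 68.5 CPM, the last from 12 UMIs in 18 cells) and Treg-like cells (29.7, 12.8 and 51.4 CPM). In cycling, CD4 T-like and Treg-like cells the order of libraries was sham, naïve, SCI, with no overlap of the intervals. HOPX was low in CD8 T-like cells (11.2, 8.73 and 19.1 CPM) and, of the T subsets, lowest in naïve T-like cells, with 3, 4 and 3 UMIs in all.

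For comparison, B-like cells had a HOPX level of 10.6 CPM in naïve blood, 2.57 CPM in sham blood and 14.9 CPM in SCI blood. This level was not even over the B-like cells of naïve blood, where a finer cluster led by EBI3, SSPN and WNT16 stood at 27.1 CPM (33 UMIs). Those led by COL19A1 and by TCL1B stood at 0.91 and 2.52 CPM there. The same clusters stood at 13.8, 0 and 0.99 CPM in sham blood and at 23.0, 11.5 and 10.9 CPM in SCI blood (14 UMIs each). Whether free RNA adds to these levels was not tested. The HOPX level of CD8 T-like cells in SCI blood, at 19.1 CPM (15.1 to 23.7), overlapped the B-like interval of 10.9 to 19.8 CPM. In B-like cells PTGER2 stood at 2.50, 1.71 and 4.43 CPM and LRRN3 at 0.31, 0.86 and 0.95 CPM. The B-like level was thus lower for PTGER2 and LRRN3 than for HOPX in each library.

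Within the cytotoxic memory T-like cells, HOPX was found in a larger share of the cells of SCI blood than of either control. All UMIs counted, 15.6% of 493 naïve cells, 24.5% of 294 sham cells and 53.5% of 445 SCI cells held a HOPX UMI. Positive cells held 2.62, 2.74 and 3.20 HOPX UMIs on average. These averages were not set to equal depth, and the median depth of the subset was 3454, 5533 and 4156 UMIs per cell. After each cell was thinned to 1000 UMIs, so that depth was equal, the shares were 8.92% (6.56 to 11.8), 8.16% (5.30 to 11.9) and 27.0% (22.9 to 31.3). Equal depth removed the gap between the controls and left SCI blood apart from both. Without thinning, cells with 5 or more HOPX UMIs numbered 11, 14 and 54 in the naïve, sham and SCI libraries, or 2.23%, 4.76% and 12.1% of the subset. In B-like cells the thinned shares were 0.67%, 0 of 565 cells (interval up to 0.65%) and 0.77%, below the cytotoxic shares in each library.

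**Figure D3:**
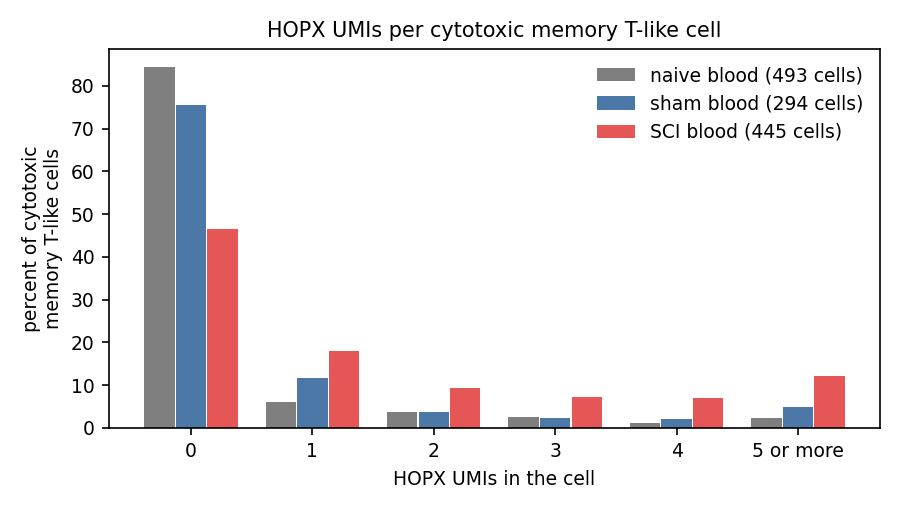
HOPX UMIs per cytotoxic memory T-like cell (horizontal axis) against the percent of those cells (vertical axis), 1 bar per blood library and unthinned. SCI blood has fewer cells at 0 UMIs, and 12.1% of its cells hold 5 or more, against 2.23% in naïve and 4.76% in sham blood.

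A finer clustering split off a few cells of this subset that led with the NK genes NCAM1, SH2D1B and KLRF1, a group singled out after its values were seen. It held 14, 13 and 20 cells of naïve, sham and SCI blood, of which 12, 13 and 18 had a UMI of TYROBP, an NK adaptor, and 6, 3 and 12 a UMI of the T cell gene CD3E. HOPX reached 1718 CPM (1279 to 2259), 1239 CPM (941 to 1601) and 1873 CPM (1502 to 2307) there, the highest level of any group, and the 3 intervals overlapped. These cells gave 7.35%, 11.3% and 5.12% of the HOPX UMIs of their libraries. Without them the remaining cytotoxic memory T-like cells stood at 110 CPM (93.4 to 129), 112 CPM (93.7 to 132) and 459 CPM (425 to 495), so SCI blood stayed apart from both controls without them.

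At the same finer resolution, which redraws the borders of the subset, cells led by GZMH, GZMB and FGFBP2 (97.5% of them in the subset) had HOPX at 96.7, 181 and 531 CPM in naïve, sham and SCI blood. Cells led by ZNF683, LINC02446 and STOM stood at 126, 67.3 and 268 CPM, but 72.9% of them lay in the subset, their markers named them CD8 T-like, and 26.1% were barcodes marked as doublets. ZNF683 encodes Hobit, a factor of resident and cytotoxic lymphocytes. HOPX was highest in SCI blood in both. By coreceptor, cytotoxic cells with a CD8A or CD8B UMI and no CD4 UMI carried HOPX at 153, 104 and 489 CPM, and those with neither at 130, 289 and 578 CPM. This split did not set aside the cells led by NCAM1, of which 13 held 58 HOPX UMIs in sham blood. The sham value of cells with neither came from 93 UMIs in 85 cells.

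PTGER2 showed another pattern, with its highest levels in CD8 T-like cells, at 262 CPM (238 to 289) in naïve blood, 266 CPM (245 to 289) in sham blood and 335 CPM (318 to 353) in SCI blood. Naïve T-like cells had nearly the same level in each library, 259 CPM (215 to 310), 243 CPM (202 to 290) and 243 CPM (221 to 267). SCI blood was thus above the controls by a log2 ratio of 0.35 and 0.33 in CD8 T-like cells, while in naïve T-like cells the ratios were -0.10 (-0.39 to 0.21) and -0.00 (-0.29 to 0.30). Lower levels were found in basophil or mast-like cells (108, 105 and 79.2 CPM), monocyte-like cells (43.8, 54.3 and 103 CPM, the last from 18 cells) and Treg-like cells (42.3, 56.3 and 42.2 CPM). Their order differed between the libraries. Treg-like cells were the only T subset in which PTGER2 was lower in SCI than in sham blood beyond the counting interval (log2 ratio -0.41, -0.78 to -0.07). This did not hold in T cells gated on a FOXP3 UMI in place of the cluster. They stood at 20.6, 36.4 and 44.3 CPM in naïve, sham and SCI blood. In a finer clustering, cells led by TWIST1, PTGIR and FANK1 stood at 81.1 CPM in sham and 50.8 CPM in SCI blood. Those led by FOXP3, CTLA4 and ADAM12 stood at 30.3 and 33.5 CPM.

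In 3 further T subsets PTGER2 was low in the controls and higher in SCI blood. CD4 T-like cells held 17, 38 and 180 UMIs in the naïve, sham and SCI libraries, or 4.53 CPM (2.64 to 7.25), 8.001 CPM (5.66 to 11.0) and 41.2 CPM (35.4 to 47.7). Cytotoxic memory T-like cells held 11, 11 and 86 UMIs (7.86, 8.51 and 56.9 CPM), and PDCD1/CD200 T-like cells 4, 4 and 18 UMIs (2.71, 1.98 and 16.4 CPM). The B-like level of 4.43 CPM (2.42 to 7.44) in SCI blood lay below each of these SCI levels, and no interval overlapped it, whereas in naïve blood the interval of each of the 3 overlapped that of the B-like cells. The log2 ratio of SCI blood to naïve and sham blood was 3.15 and 2.35 in CD4 T-like cells, ranks 9 of 10674 and 15 of 10813 genes. In cytotoxic memory T-like cells it was 2.80 and 2.69, ranks 9 of 9251 and 7 of 9082 genes. The genes were chosen on these contrasts, so nothing is read from the ranks. Few cells carried the PDCD1/CD200 T-like value, since its 18 SCI UMIs lay in 8 of 306 cells. After thinning, 1 of these 306 cells held a PTGER2 UMI, against 1 of 511 in naïve and 0 of 471 in sham blood.

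In SCI blood, 80 of the 180 PTGER2 UMIs of the CD4 T-like cells came from cells with a CD4 UMI and no CD8A or CD8B UMI. Another 80 came from cells with neither coreceptor. These groups made up 48.2% and 47.2% of the subset there. The former cells stood at 2.69, 5.32 and 35.4 CPM in the naïve, sham and SCI libraries, and the latter at 5.99, 10.4 and 42.5 CPM. The few cells with a CD8A or CD8B UMI stood higher in SCI blood. The 34 without a CD4 UMI held 9 PTGER2 UMIs (63.6 CPM, 29.1 to 121), and the 18 with one held 11 (128 CPM, 63.9 to 229). At the finer resolution the PTGER2 level differed within the subset. The cells led by USP46, ST6GALNAC1 and NHSL2 reached 107 CPM in SCI blood against 6.10 CPM in naïve and 11.7 CPM in sham blood. Those led by CCR10, HSD11B1 and CD40LG stood at 21.6 CPM against 5.52 and 6.53 CPM, and those led by ST6GALNAC1, NSG1 and TSHZ2 at 14.6 CPM against 0 and 4.45 CPM.

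LRRN3 was highest in the same pair of subsets as PTGER2. In CD8 T-like cells it stood at 197 CPM (176 to 220), 220 CPM (200.4 to 240.3) and 263 CPM (248 to 279) in naïve, sham and SCI blood, and in naïve T-like cells at 205 CPM (166 to 251), 184 CPM (148 to 225) and 223 CPM (203 to 246). The naïve T-like intervals overlapped in all 3 libraries, and in CD8 T-like cells SCI blood lay above both controls by 0.41 and 0.26 on the log2 scale. Lower levels followed in PDCD1/CD200 T-like cells (46.0, 59.9 and 62.7 CPM), CD4 T-like cells (22.4, 35.2 and 55.6 CPM) and cytotoxic memory T-like cells (34.3, 64.9 and 53.6 CPM). Treg-like cells held little, at 3.15, 2.72 and 11.4 CPM from 9, 10 and 27 UMIs. T cells gated on a FOXP3 UMI stood at 3.74, 7.62 and 6.16 CPM from 4, 13 and 5 UMIs, so SCI blood was not the highest library there. Basophil or mast-like cells held at most 2 UMIs in a library, where PTGER2 had been clearly present.

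**Figure D4:**
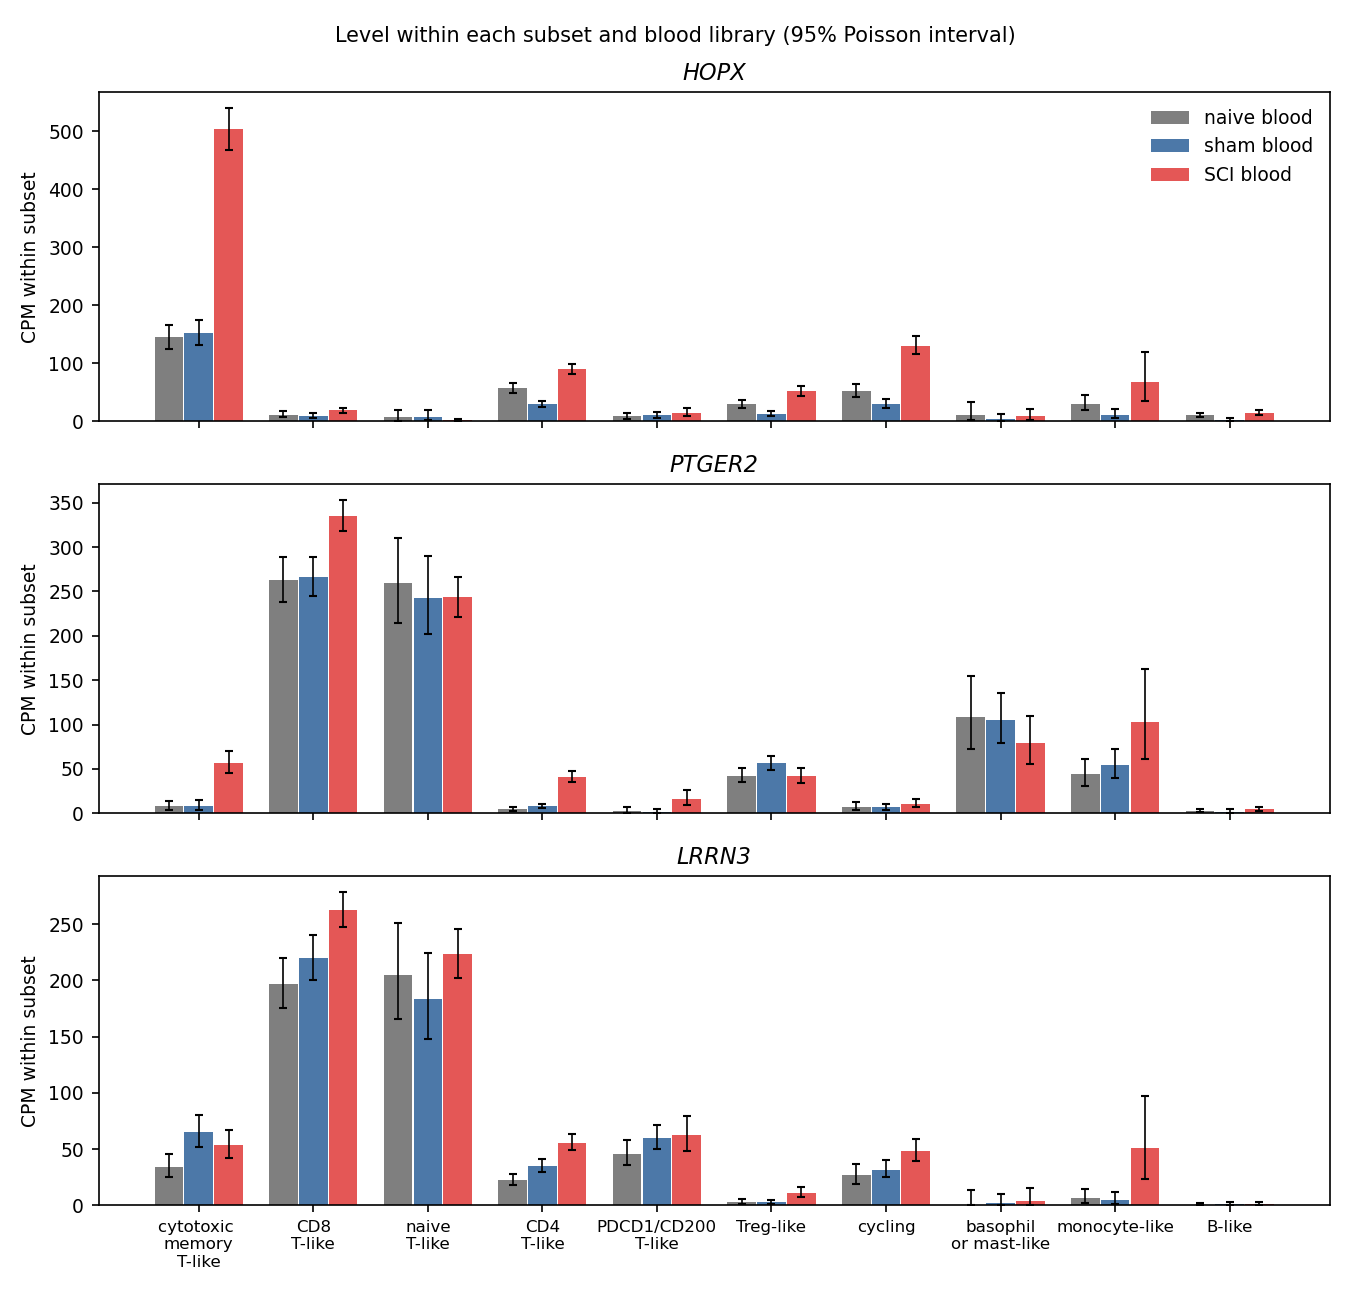
Level of each gene within 10 subsets (horizontal axis) in naïve, sham and SCI blood (CPM within the subset, vertical axis, each panel with its own scale), with 95% Poisson intervals. HOPX peaks in cytotoxic memory T-like cells, at 503 CPM in SCI blood, while PTGER2 and LRRN3 peak in CD8 T-like and naïve T-like cells in all 3 libraries.

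Within CD8 T-like cells none of the 3 members passed a log2 ratio of 1 against naïve blood, with 1.48% of genes past it, and against sham blood HOPX alone did at 1.10, from the low level noted above, with 1.36% of genes past it. Within naïve T-like cells the 2 members with enough counts did not pass it against either control, with 2.44% and 2.74% of genes past it. Within CD4 T-like cells 2 of 3 members passed it against naïve blood (PTGER2 and LRRN3, with 1.55% of genes past it) and 2 of 3 against sham blood (HOPX and PTGER2, with 1.33%). Within cytotoxic memory T-like cells HOPX and PTGER2 passed it against both, with 1.99% and 1.97% of genes past it. Within Treg-like cells 1 of 3 passed it against naïve blood (LRRN3, 1.80, with 1% of genes past it). Against sham blood 2 of 3 did (HOPX, 2.00, and LRRN3, 2.02, with 1.34%). The LRRN3 ratios there rest on the low counts noted above. Within PDCD1/CD200 T-like cells PTGER2 alone passed it against both controls (2.46 and 2.92, with 1.29% and 1.28%). These contrasts are those that chose the genes, and nothing is read from the counts.

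The difference in CPM between libraries was split exactly into a share part, from the change in each subset's share of UMIs, and a level part, from the change in level within subsets. For HOPX, SCI blood exceeded naïve blood by 48.3 CPM, of which 4.48 CPM was share part and 43.9 CPM level part. It exceeded sham blood by 54.8 CPM, with a share part of -3.24 CPM and a level part of 58.1 CPM. The level within subsets thus accounted for 90.7% and 106% of the difference. With sham levels at the subset shares of SCI blood, HOPX would stand at 24.2 CPM, near the 24.99 CPM measured in sham blood.

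Cytotoxic memory T-like cells made up 54.1% of the HOPX difference from naïve and 46.9% of that from sham blood. Cycling cells added 19.1% and 17.2%, and CD4 T-like cells 17.5% and 20.9%. The level part was the larger one in each of these 3 groups and in both comparisons. The HOPX share part was small in the split above (9.26% against naïve and -5.91% against sham blood), but its size and sign depended on the settings. Against naïve blood it was -19.5% without the plasma-like cells and -29.5% in T subsets alone, and against sham blood 5.57% when cells were clustered without centring by library.

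For PTGER2 the share part was the larger one. Of the 73.4 CPM by which SCI exceeded naïve blood, 51.8 CPM (70.5%) was share part, and of the 56.1 CPM against sham blood 35.5 CPM (63.3%). LRRN3 was split alike, with a share part of 42.6 of 64.9 CPM (65.5%) against naïve and 28.4 of 45.7 CPM (62.3%) against sham blood. CD8 T-like cells carried 63.0% and 66.1% of the PTGER2 difference and 56.8% and 61.1% of the LRRN3 difference, and naïve T-like cells 21.3% and 26.9%, and 23.2% and 32.4%. Levels of the naïve library at the subset shares of SCI blood would give 83.8 CPM for PTGER2 and 68.8 CPM for LRRN3, between the levels measured in the 2 libraries.

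**Figure D5:**
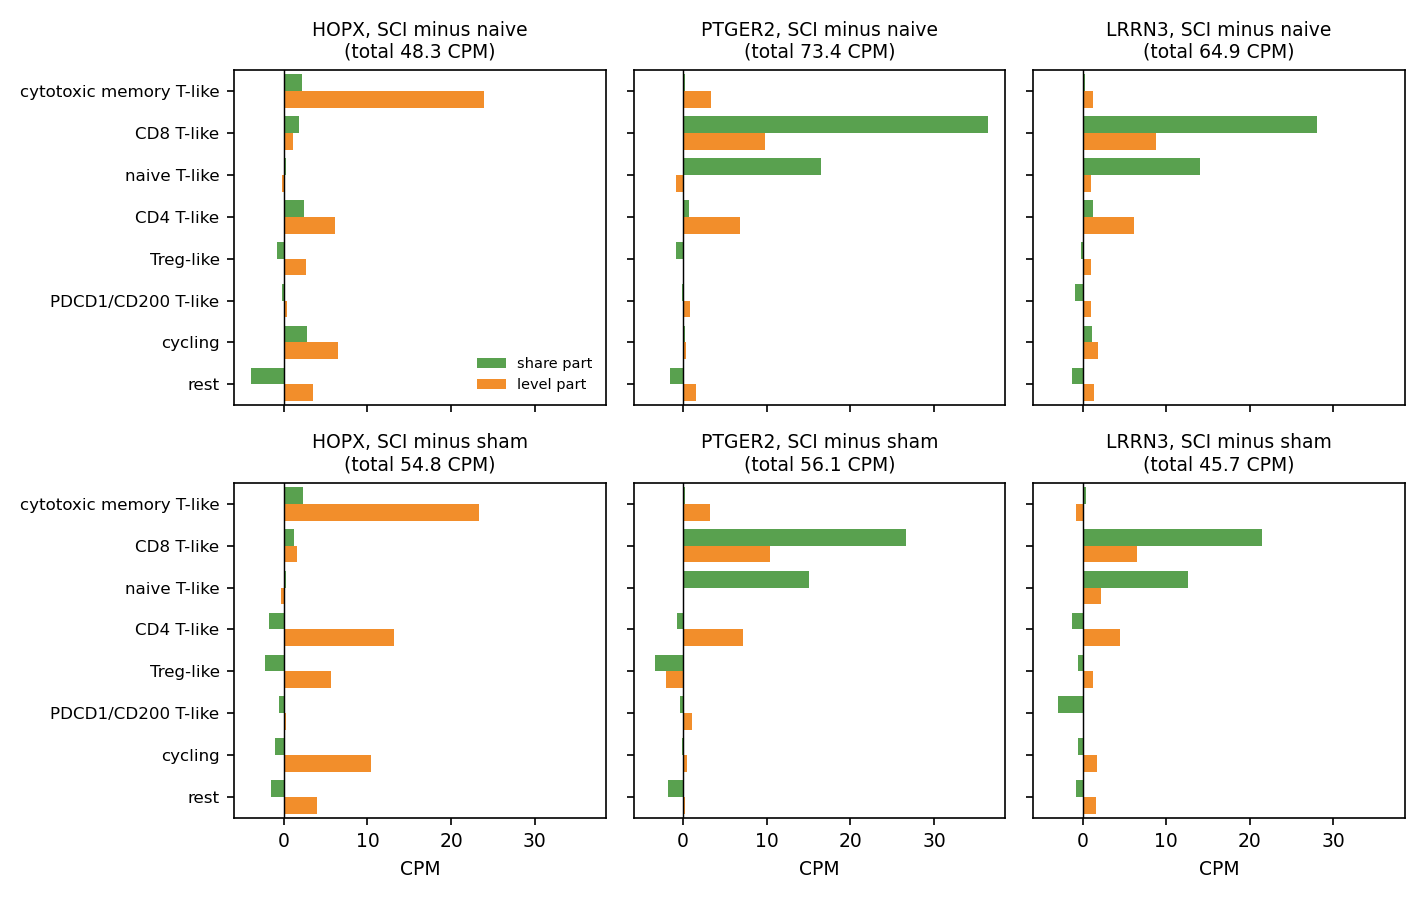
Share part and level part of the CPM difference (horizontal axis, CPM) by subset (vertical axis) for each gene, SCI minus naïve blood above and SCI minus sham blood below, where "rest" sums the subsets not listed. The HOPX difference is mostly level part, with its largest piece in cytotoxic memory T-like cells (49.6% of the difference from naïve and 42.7% from sham blood). The differences of PTGER2 and LRRN3 are mostly share part in CD8 T-like and naïve T-like cells.

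Among all genes higher in SCI blood by a log2 ratio of at least 1, the median share part was 35.7% against naïve blood (479 genes) and 13.6% against sham blood (278 genes). A share part over 50% was found for 34% and 13.7% of them. PTGER2 was among these in both comparisons, and so was LRRN3 against naïve blood, whereas HOPX was in neither. Against sham blood LRRN3 had a share part of 62.3%, but its log2 ratio of 0.93 kept it out of the set. The split depends on the definition of the subsets. With gates on UMIs of CD3, CD4, CD8, FOXP3 and cytotoxic genes in place of clusters, the share part of PTGER2 was 31.5% against naïve and 25.5% against sham blood, that of LRRN3 34.0% and 27.5%, and that of HOPX 26.6% and 16.4%. With these gates the level part was thus the larger one for all 3 genes. T cells with neither a CD4 nor a CD8 UMI were 29.5%, 26.6% and 25.2% of the cells in the naïve, sham and SCI libraries and formed 1 gate of mixed make-up.

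The cytotoxic gate had the highest HOPX level, at 199.6, 288 and 641 CPM in the naïve, sham and SCI libraries, and the CD8 gate the highest PTGER2 level (171, 203 and 300.3 CPM) and LRRN3 level (161, 187 and 238 CPM). In each of these SCI blood was the highest library, and each gene thus peaked in the kind of cell that the clusters had given.

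Over 31 profiles (subsets of at least 50 cells in each blood library), PTGER2 and LRRN3 were correlated at Pearson r = 0.51, HOPX and PTGER2 at -0.24 and HOPX and LRRN3 at 0.09, as a description over profiles that share libraries. Among the genes with profiles most like HOPX were IFNG (r = 0.84), SLF1 (0.84), CX3CR1 (0.84) and GNLY (0.82), among them the Th1 cytokine interferon gamma, a chemokine receptor of cytotoxic cells and a granule protein. Those most like PTGER2 were UPP1, CISH, BX284668.5, IGF1R and RFLNB (0.82 to 0.84), with CISH a feedback inhibitor of cytokine signalling. Those most like LRRN3 were TMIGD2 (0.94), NOSIP, PLXDC1, IL7R and OXNAD1 (0.92 to 0.93), with IL7R the receptor chain for interleukin 7, which sustains resting T cells.

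Whether PTGER2 and LRRN3 were found in the same cells was read in the thinned cells of SCI blood. In CD8 T-like cells LRRN3 was found in 26 of 254 with a PTGER2 UMI (10.2%, 6.80 to 14.6) and in 14.4% (12.5 to 16.6) of those without. In naïve T-like cells of SCI blood the shares were 16.2% (8.95 to 26.2) and 9.70% (7.26 to 12.6). The intervals overlapped in both subsets. In cytotoxic memory T-like cells of SCI blood PTGER2 was found in 2.50% of the 120 cells with HOPX and in 4.62% of the 325 without, again with overlapping intervals.

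Other genes of the same pathways were read in the library sums. Over all genes, 28.8% lay above and 16.9% below naïve blood beyond the counting interval, and 16.5% above and 16.2% below sham blood. Without the plasma-like cells 15.8% lay above and 20.7% below naïve blood, and the median log2 ratio over all genes was -0.02 in place of 0.07. Of the 4 receptors for prostaglandin E2, PTGER4 (EP4, also coupled to the stimulatory G protein) stood at 40.2, 48.7 and 59.8 CPM in naïve, sham and SCI blood, a log2 ratio of SCI of 0.57 and 0.30 (0.28 to naïve blood without plasma-like cells). PTGER3 stood at 1.32, 1.07 and 1.76 CPM, and PTGER1 was counted too rarely for a ratio. PTGER4 was spread over the T subsets at 34.3 to 93.8 CPM, without the concentration of PTGER2 in 2 of them. Of the genes that make, carry or break down prostaglandin E2, 6 of 8 had enough counts. The median log2 ratio was 0.34 against naïve (0.18 without plasma-like cells) and -0.14 against sham blood, beside a median of 0.07 and 0.01 over all genes. HPGD, which degrades prostaglandins, stood at 97.6, 176 and 138 CPM, and the inducible synthase PTGS2 below 1 CPM in each library.

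Of the 15 genes of cyclic AMP signalling, 6 were above naïve blood and 1 below it beyond the counting interval, and 8 above and 4 below sham blood. Their median log2 ratios were 0.07, the same as over all genes, and 0.16. Without plasma-like cells 6 were above and 4 below naïve blood, with a median of 0.08. RAPGEF3, a cyclic AMP sensor, had the largest ratio to sham blood, at 1.36 from 17 against 6 UMIs. PDE3B, a phosphodiesterase that breaks down cyclic AMP, was the furthest above naïve blood (88.3, 129 and 149 CPM, log2 ratio 0.75, or 0.44 without plasma-like cells). The other LRRN genes were barely counted, LRRN1 at 0.73, 0.54 and 1.16 CPM and LRRN2 at 1.13, 0.78 and 0.46 CPM.

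Of the 17 genes of naïve T cells and recent thymic emigrants, 13 were above naïve blood and 1 below, and 14 above and 2 below sham blood, with median log2 ratios of 0.57 and 0.23. Without plasma-like cells 11 were above and 2 below naïve blood, with a median of 0.28. AK5 (2.27, 4.25 and 11.3 CPM) and NOG (2.32, 3.17 and 8.82 CPM), both leading genes of the naïve T-like cells, differed most, while TOX and IKZF2 were below sham blood (-0.55 and -0.41). Of the 16 memory and effector genes, 11 were above and 1 below naïve blood, and 14 above and 1 below sham blood, with medians of 0.73 and 0.57. Without plasma-like cells 11 were above and 4 below naïve blood, with a median of 0.43. Among these, KLRD1 (19.2, 20.0 and 49.1 CPM) and KLRG1 (51.0, 55.4 and 112 CPM), receptors of cytotoxic cells, passed a log2 ratio of 1 against both controls, KLRG1 no longer against naïve blood without plasma-like cells (0.84), and GZMB differed from naïve blood by 1.42 but from sham blood by 0.04.

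Of the HOPX partners and AP-1 genes, SRF and HDAC2 differed by at most 0.09 on the log2 scale in the SCI comparisons, and FOS stood at 58.9, 85.2 and 124 CPM. The 6 genes had a median of 0.38 against naïve (0.56 without plasma-like cells) and 0.20 against sham blood.

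In the injured cord, 118 cells gave 59 HOPX, 40 PTGER2 and 31 LRRN3 UMIs, or 55.6 CPM (42.3 to 71.7), 37.7 CPM (26.9 to 51.4) and 29.2 CPM (19.9 to 41.5). All 3 were below SCI blood, with log2 ratios of -0.51, -1.52 and -1.69, and 0 of 3 passed a ratio of 1 in the higher direction, as 13.8% of 13390 genes did. T subsets made up 68 of the cord cells. Within them HOPX stood at 111 CPM (81.3 to 148) against 89.1 CPM (84.5 to 93.9) in the T subsets of SCI blood, so its direction turned to a log2 ratio of 0.33 with overlapping intervals. PTGER2 (53.1 against 146 CPM) and LRRN3 (65.1 against 126 CPM) stayed lower in the cord. Few cells carried these values, since 10 cells held 77.97% of the HOPX, 80% of the PTGER2 and 96.8% of the LRRN3 UMIs of the cord. By subset, 12 cytotoxic memory T-like cells held 25 of the HOPX UMIs (412 CPM, 267 to 608) and 12 PDCD1/CD200 T-like cells 20 of the LRRN3 UMIs (244 CPM, 149 to 378), while 11 CD8 T-like cells held 14 of the PTGER2 UMIs (203 CPM, 111 to 341).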

How the data were processed

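The authors aligned the reads with Cell Ranger 3.1.0 to a combined human (hg38) and mouse (mm10) reference and deposited UMI counts per gene and barcode, without normalisation. Barcodes with over 50% human UMIs were kept, those beyond 3 median absolute deviations in depth, genes, mitochondrial or ribosomal share were removed, and doublets marked by Scrublet (the top scores, 0.8% per 1000 barcodes) were removed where they had over 3000 genes. Cells were clustered with scanpy 1.11.5 and leidenalg 0.10.2 on 2000 variable genes without the 3 members, scaled within each library, with 30 components, 15 neighbours and a resolution of 0.8, and named from marker lists, with ties settled by the median fold after the clusters had been seen. A cluster of 113 marked barcodes was set apart.

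Ratios were taken on the log2 scale after adding 0.5 to each count, for genes with 20 or more counts in both libraries together. Intervals were exact Poisson, binomial and conditional binomial at 95%. Share and level parts were weighted by the mean of both libraries, and a cluster without cells in 1 library took the level of the other. The calculations were tested on simulated data. Named genes were the members, fixed pathway lists, the 5 leading genes of each T subset and the 5 genes most like each member, of which 1 is not reported here. Members and lists were chosen with earlier results of these data known. Genes of the finer clusters and cell type checks were named after their values were seen. No p-values were computed, since each condition was 1 library. Share parts with other subsets, weights and filters, and log2 ratios with other filters and scalings, are in the closing section. Factors from edgeR 4.0.16 TMM were applied to the log2 ratios only, and those ratios are not listed there. Human sequences were not used here.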

Additional observations from a re-analysis of the deposited data

Results flagged for a closer look

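Within the same comparison, PTGER2 lay above sham blood in SCI blood in 5 subsets and below it in 1 with a counting interval that left out 0. The log2 ratios ran from 2.92 in PDCD1/CD200 T-like cells (18 UMIs in 8 cells against 4 UMIs in 3 cells) to -0.41 in Treg-like cells. In T cells gated on a FOXP3 UMI, PTGER2 was not lower in SCI blood (44.3 CPM) than in sham blood (36.4 CPM). In the cord against SCI blood, LRRN3 was above in PDCD1/CD200 T-like cells by 1.99 (20 UMIs in 5 of 12 cells). It was below in CD4 T-like cells by a fitted value of -3.01 (0 UMIs in 15 cells, so that the size depends on the added counts). Each stands on 1 library per condition, and the difference between subsets was not tested.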

How the results depend on the processing

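No paired analysis was possible because each condition was 1 library, and leaving out a replicate was not possible for the same reason. Without plasma-like cells (added after seeing the data, for the pathway lists too), the log2 ratios of HOPX, PTGER2 and LRRN3 were 1.04, 1.30 and 1.32 for SCI against naïve blood and -0.63, 0.26 and 0.39 for sham against naïve blood. In T subsets only (also added) they were 0.94, 1.28 and 1.23, and -0.65, 0.15 and 0.30, with 0.33 for HOPX and -0.92 for LRRN3 in cord against SCI blood. As means over cells they were 1.08, 1.39 and 1.42, and -0.55, 0.41 and 0.43, and with cells thinned to 1000 UMIs 0.97, 1.23 and 1.23, and -0.80, 0.21 and 0.22. In UMIs per cell they were 1.39, 0.76 and 0.65 for SCI against sham blood and 0.0061, 0.91 and 1.04 for sham against naïve blood.

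The share part of the HOPX difference from naïve blood was -19.5% without plasma-like cells, -29.5% in T subsets only, -12.7% with shares of cells and counts per cell, 5.72% with control levels as weights, 12.8% with SCI levels as weights and 26.6% with marker gates. Against sham blood it was -7.36% without a cell filter, -8.06% without marked barcodes, -3.34% in T subsets only, -9.50% at resolution 0.4, -2.31% at resolution 1.5, 5.57% without centring, 16.4% with gates, -3.52% with shares of cells, -1.48% with control levels and -10.3% with SCI levels as weights. Gates gave 31.5% and 25.5% for PTGER2 and 34.0% and 27.5% for LRRN3 against naïve and sham blood, and LRRN3 without plasma-like cells 57.3%. With all marked barcodes removed, HOPX in cytotoxic memory T-like cells of SCI blood stood at 569 CPM. With all UMIs in place of thinned cells, the shares with a UMI in naïve, sham and SCI blood were 15.6%, 24.5% and 53.5% for HOPX in cytotoxic cells, 39.9%, 49.7% and 53.0% for PTGER2 and 31.2%, 41.1% and 44.7% for LRRN3 in CD8 T-like cells. The cause of these shifts was not tested. The cord values are limited by 118 cells.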
